A study of Mus musculus with 32 samples.

Results

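Genes of the secretory lineages were examined for HNF4A occupancy in the jejunal epithelium after a high-fat meal (HFM). The 8 genes were Muc2, Tff3, Spdef, Agr2 and Fcgbp, which mark goblet cells, Lyz1 and Mmp7, which mark Paneth cells, and Muc13, a surface mucin that goblet cells share with absorptive enterocytes. HNF4A ChIP-seq peak lists came from intestinal epithelial cell (IEC) preparations of 4 germ-free mice given the meal (GF+HFM) and 4 mice raised germ-free, colonized with a conventional microbiota for 14 days and given the same meal (CV+HFM). All mice were male C57BL/6J 10 to 12 weeks of age, and jejunum was collected 2 hours after gavage of a chicken egg yolk emulsion. Peaks of the 8 lists that shared at least 1 bp were joined into 45552 merged sites (mm9), and those within each gene or 20 kb to either side were kept. This gave 34 merged sites at 7 of the 8 genes, out of 22238 protein-coding genes in the annotation (GENCODE M1). Mmp7 had none.

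The preparations were not sorted. Beside villus epithelium, crypts and mesenchyme of the villus core were partly carried along, so a site at a goblet or Paneth gene cannot be assigned to a cell type, and fewer cells of a type cannot be told apart from less HNF4A binding per cell. The lists give the position of each peak and no measure of its strength. Strength is therefore replaced by the width percentile, the rank of a peak's width among all peaks of the same library on a scale of 0 to 100.

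Goblet cells make the mucus of the intestine, and Paneth cells release antimicrobial proteins at the base of the small intestinal crypts. MUC2 is the main gel-forming mucin, FCGBP is a protein of the mucus gel, TFF3 is a trefoil peptide secreted with it, and AGR2 is a disulfide isomerase of the endoplasmic reticulum needed to make MUC2. SPDEF is a transcription factor of goblet and Paneth cell maturation. LYZ1 is lysozyme, and MMP7 is the protease that activates Paneth cell defensins. HNF4A is a nuclear receptor that binds DNA as a dimer and is best known in the intestine for its role in enterocyte differentiation and lipid metabolism.

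The reference sequence (mm9, plus strand) of the most often called site of 6 of the genes is shown, so that the DNA under the values given for each gene can be seen. The Tff3 site called in GF+HFM libraries only was added after its values were seen. Each run is the stretch shared by the peaks of all libraries that called the site, at most 300 bp of it and without untranslated bases. For Muc13 the shared stretch was untranslated, and the run shown lies in intron 1 and is covered by the peaks of 6 of 8 libraries. Capitals mark a match to CAAAGTCCA on the minus strand.
Muc13 start site, chr16:33794219-33794452: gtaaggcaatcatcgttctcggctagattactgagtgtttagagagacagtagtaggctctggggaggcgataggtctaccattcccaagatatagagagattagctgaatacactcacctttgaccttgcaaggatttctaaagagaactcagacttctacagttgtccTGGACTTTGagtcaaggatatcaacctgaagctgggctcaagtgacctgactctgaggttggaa
Tff3 start site, chr17:31266592-31266661: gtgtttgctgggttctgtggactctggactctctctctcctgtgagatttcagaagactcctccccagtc
Tff3 site upstream, GF+HFM libraries only, chr17:31272004-31272210: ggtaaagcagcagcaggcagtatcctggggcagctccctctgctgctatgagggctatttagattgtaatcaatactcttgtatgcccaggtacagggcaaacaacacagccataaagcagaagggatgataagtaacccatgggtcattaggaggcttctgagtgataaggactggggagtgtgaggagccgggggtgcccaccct
Lyz1 start site, chr10:116729938-116730135: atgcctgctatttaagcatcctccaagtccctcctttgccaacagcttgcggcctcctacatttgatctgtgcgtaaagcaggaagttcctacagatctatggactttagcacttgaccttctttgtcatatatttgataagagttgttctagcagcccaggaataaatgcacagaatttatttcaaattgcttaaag
Spdef exon 2 site, chr17:27856739-27856907: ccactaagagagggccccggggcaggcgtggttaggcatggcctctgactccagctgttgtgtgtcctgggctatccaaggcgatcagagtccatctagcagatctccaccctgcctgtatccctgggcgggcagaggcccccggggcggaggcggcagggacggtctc
Agr2 downstream site, chr12:36735109-36735336: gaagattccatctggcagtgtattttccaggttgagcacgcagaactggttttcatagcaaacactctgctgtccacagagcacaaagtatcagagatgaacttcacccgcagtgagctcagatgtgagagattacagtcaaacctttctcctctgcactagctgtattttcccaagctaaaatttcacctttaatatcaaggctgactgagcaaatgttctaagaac
Muc2 downstream site, chr7:148956661-148956960: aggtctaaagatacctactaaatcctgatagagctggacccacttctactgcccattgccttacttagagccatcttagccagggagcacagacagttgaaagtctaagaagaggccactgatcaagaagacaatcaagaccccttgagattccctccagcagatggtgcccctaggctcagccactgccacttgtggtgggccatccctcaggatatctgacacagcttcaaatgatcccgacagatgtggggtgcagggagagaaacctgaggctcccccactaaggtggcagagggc

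The motif strings for HNF4A were searched on both strands of the central 300 bp of each site, CAAAGTCCA, CAAAGGTCA and CAAAGNNCA, of which the last includes the other two. CAAAGNNCA was present at 8 of the 34 sites (23.5%), beside 27.5% of all 45323 windows searched. CAAAGTCCA was present at 3 of the 34, beside 5.72% of all windows. These 3 were the Muc13 start site (33794389 to 33794397), an Agr2 site downstream of the gene (36734379 to 36734387) and the Lyz1 site upstream of the gene (116737288 to 116737296). CAAAGGTCA was present only at the Spdef site over exon 5 (27854051 to 27854059), beside 5.06% of all windows. The Tff3, Fcgbp and Muc2 sites held none of these strings in that window.

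The gene-by-gene account starts with the mucins. Muc13 (chromosome 16, 33794123 to 33820020, plus strand) had 18 sites, more than 99.3% of protein-coding genes. The site over its start (33793975 to 33794734) was the only one of the 34 called in all 8 libraries. Its width percentile was 89.5, 96.8, 86.8 and 80.4 in GF+HFM replicates 1 to 4, and 95.4, 59.2, 95.7 and 17.9 in CV+HFM replicates 1 to 4. CV+HFM replicates 2 and 4 were thus the low libraries at this site, and the other 2 CV+HFM libraries overlapped with GF+HFM. In CV+HFM replicate 4 the site was split into 3 peaks, where each other library called 1. The percentile of that library is that of the widest of them, 60 bp. Of the remaining 17 sites, 7 lay upstream over the noncoding gene Gm15658, 5 lay inside Muc13 and 5 lay downstream, of which 4 overlapped the neighbouring gene Itgb5. The widest Muc13 site lay 6430 bp before the start (33786761 to 33787693, 933 bp) and was called in every GF+HFM library plus CV+HFM replicates 1 and 3. Its mean width percentile, 82.7, was the highest of the 34 sites when each mean was taken over the libraries that called the site. That mean covers 6 libraries, whereas the mean of the start site, 77.7, covers all 8, with the low CV+HFM replicates 2 and 4. With an absent peak counted as 0, the mean was 62.0 for the 933 bp site and 77.7 for the start site. The downstream site from 33836555 to 33837417 was called in 7 libraries, all but CV+HFM replicate 4. When each site was given to its nearest gene of any type, 5 of the 18 fell to Muc13. The start site overlaps both Muc13 and the noncoding gene Gm15657, and at this tie the first listed, Gm15657, was taken. In exon 3 of Muc13, a site called only in GF+HFM replicate 3 (33799084 to 33799508) lay in repeated sequence. Of its 50-mers 0.798% occur once in the genome, 50 bp being the length of the sequencing reads. For the downstream site from 33828537 to 33829120, called in 6 libraries, this share was 77.2%, and for the other Muc13 sites 92.8% to 100%.

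Muc2 (chromosome 7, 148876268 to 148940595, plus strand) had 2 sites, neither within the gene. The upstream site (148859366 to 148859572) was called in GF+HFM replicate 1 only and ended 16696 bp before the gene. The downstream site (148956656 to 148956964) was called in GF+HFM replicate 4 only. Their width percentiles were 18.9 and 21.3, and each also lay within 20 kb of another mucin gene, Muc6 or Muc5ac. In the mm9 reference 40200 bp of Muc2, 62.5% of the gene, are unsequenced gaps, where no read can map and no peak can be called. No other gene of the 8 holds a gap, and only 6 protein-coding genes in the genome, Muc2 included, have a share as large. The lack of sites inside Muc2 therefore covers the sequenced remainder of the gene. Fcgbp (chromosome 7, 28856255 to 28905881, plus strand) had 1 site, 5822 bp before the gene, called in every GF+HFM library plus CV+HFM replicates 1 and 3. Its width percentile was 32.7, 57.1, 79.1 and 83.6 for GF+HFM, against 72.2 and 17.9 for these 2 CV+HFM libraries, so that the conditions overlapped. Part of Fcgbp is repeated sequence. Of the 50-mers of the whole site, 785 bp, 85.5% occur once in the genome, and of those of the gene 74.3%. This share was not counted for the 186 bp that the peaks of all 6 calling libraries cover, which end in short repeats of C and T.

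**Figure D1:**
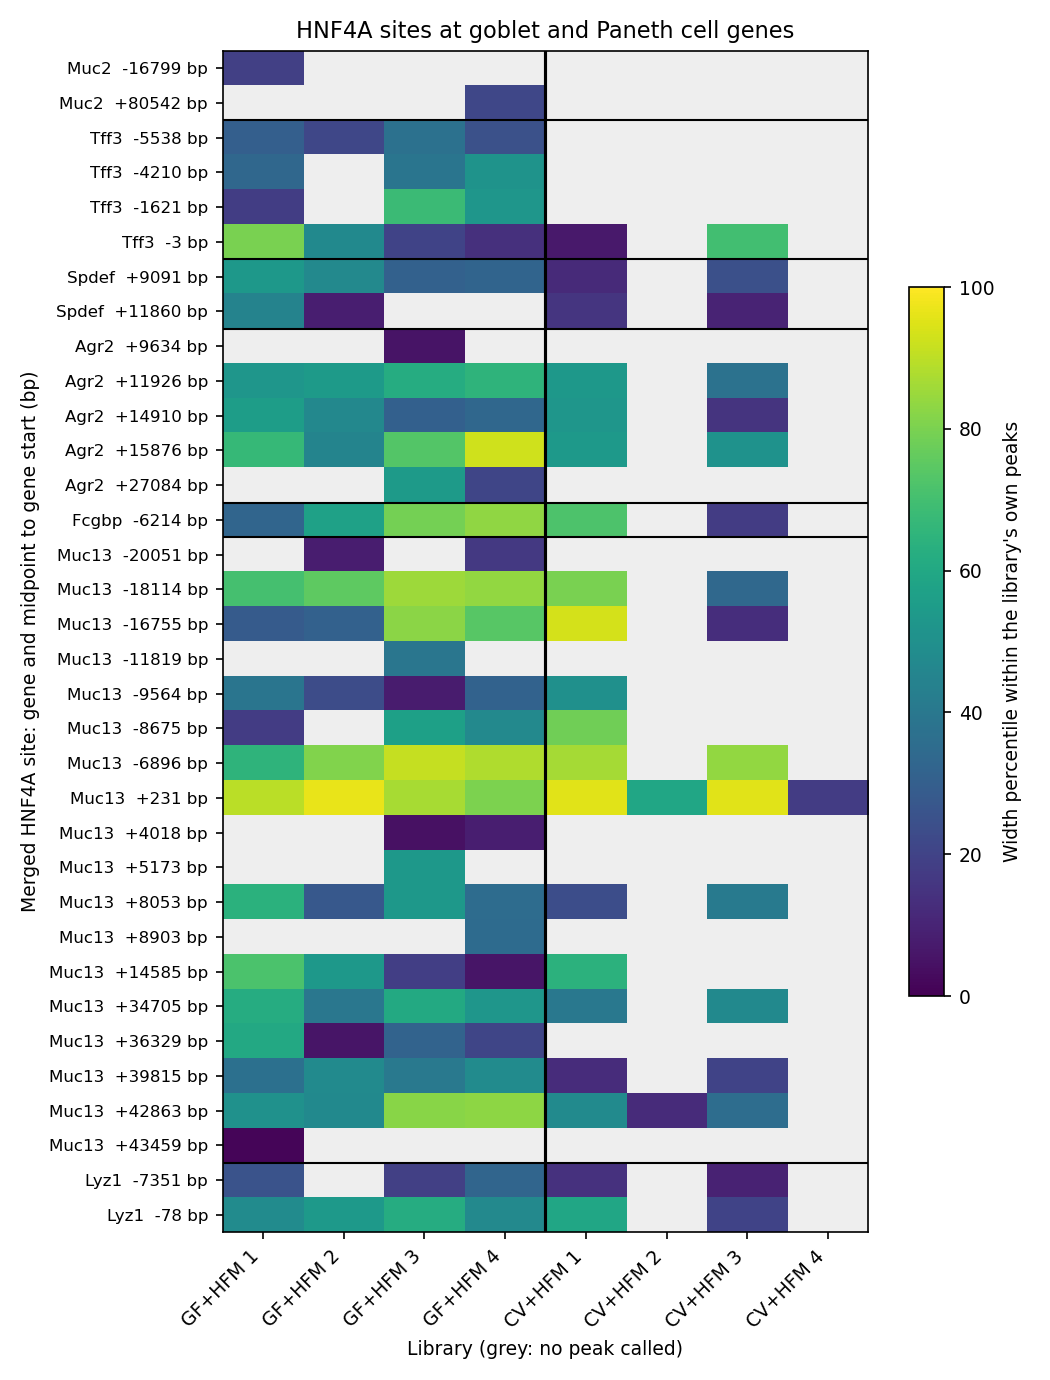
Width percentile of each of the 34 merged HNF4A sites (rows, named by gene and by the distance of the site midpoint from the gene start in bp) in the 8 libraries (columns), with grey where no peak was called. The Muc13 start site is coloured in every column, and the columns of CV+HFM replicates 2 and 4 are grey except for 2 sites and 1 site.

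Tff3 (chromosome 17, 31262251 to 31266591, minus strand) had a site over its start and 3 sites upstream. The start site (31266340 to 31266848) was called in all GF+HFM libraries, at width percentiles of 79.8, 47.4, 20.0 and 13.9, and in CV+HFM replicates 1 and 3, at 6.74 and 69.9. The upstream sites at 1313 bp (31267904 to 31268520) and 3973 bp (31270564 to 31271039) before the gene were each called in GF+HFM replicates 1, 3 and 4 and in no CV+HFM library. The farthest, 5366 bp before the gene (31271957 to 31272301), was called in all 4 GF+HFM libraries, at width percentiles of 30.3, 21.2, 37.3 and 24.8, and in no CV+HFM library. All 4 also lay within 20 kb of Tff2 and Abcg1. The 3 upstream sites of Tff3 were thus seen in GF+HFM lists only, as were 14 of the 34 sites (41.2%) and 35.6% of all merged sites. Their width percentiles ran from 18.2 to 68.3.

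Spdef (chromosome 17, 27851297 to 27865896, minus strand) had 2 sites, both within the gene. The site over exon 2 (27856620 to 27856990) was called in every GF+HFM library, at width percentiles of 53.2, 47.1, 30.97 and 32.3, and by CV+HFM replicates 1 and 3 at 11.8 and 24.4. The other 2 CV+HFM libraries gave no width at this site. The site over exon 5 (27853886 to 27854187) was called in 2 libraries of each condition. Agr2 (chromosome 12, 36719494 to 36730674, plus strand) had 1 site in intron 7, called in GF+HFM replicate 3 only, and 4 sites downstream. The downstream sites starting at 36731137, 36734219 and 36734873 were each called in every GF+HFM library plus CV+HFM replicates 1 and 3. The last of these was the widest of the 34 at 996 bp, with width percentiles of 67.1, 45.1, 73.2 and 92.7 for GF+HFM, against 54.3 and 50.9 for CV+HFM. The farthest site (36746340 to 36746816) lay in Tspan13 and was called in 2 GF+HFM libraries.

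Of the Paneth genes, Lyz1 (chromosome 10, 116724852 to 116729924, minus strand) had a site over its start (116729726 to 116730278) that was called in all GF+HFM libraries, at width percentiles of 48.1, 53.7, 61.9 and 47.0, and in CV+HFM replicates 1 and 3, at 59.3 and 20.3. A second site, 7169 bp before the gene (116737093 to 116737458), was called in GF+HFM replicates 1, 3 and 4 and CV+HFM replicates 1 and 3. Both sites also lay in the window of the neighbouring lysozyme gene Lyz2, so they do not separate the genes, and 83.6% of the 50-mers of the Lyz1 gene occur once. Mmp7 (chromosome 9, 7692086 to 7699585, plus strand) had no site in any of the 8 libraries, as had 34.5% of protein-coding genes. Nearly all 50-mers of Mmp7, 99.9%, occur once in the genome, and those of its whole window do so in 89.6% of cases. At 50 kb either side, every one of the 8 genes had a site.

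**Figure D2:**
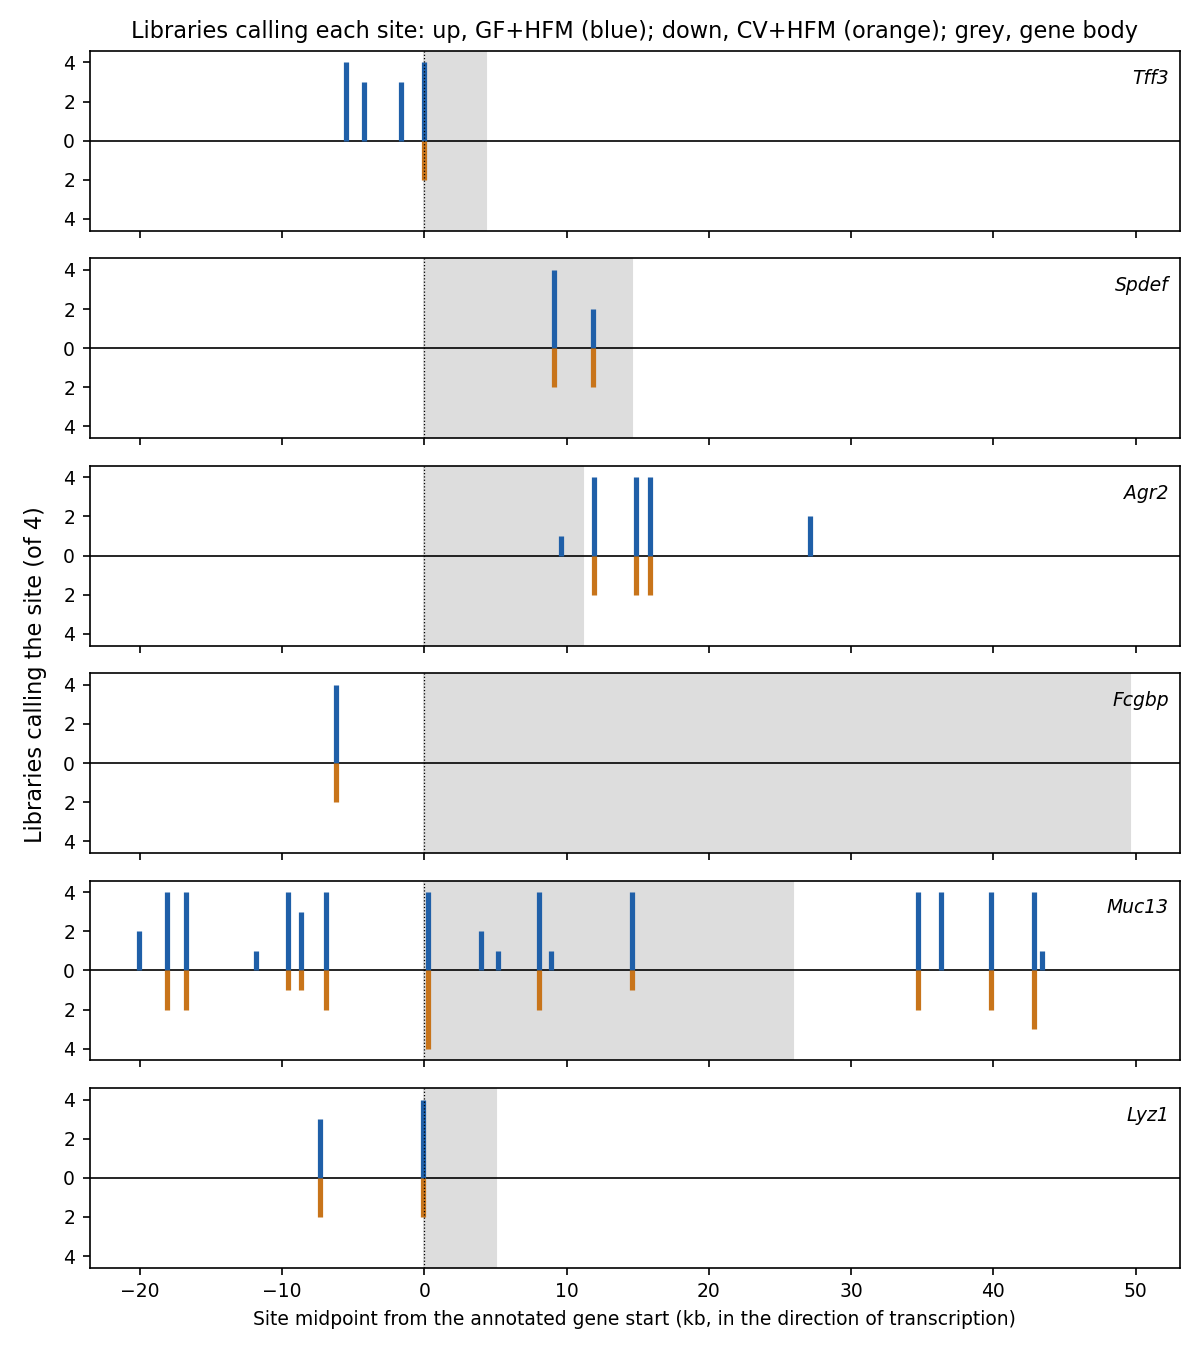
Position of the merged sites at 6 of the genes, as the distance of the site midpoint from the gene start (x axis, kb, in the direction of transcription), with the number of GF+HFM libraries (up, blue) and CV+HFM libraries (down, orange) calling each. Muc2 (2 sites) and Mmp7 (0 sites) are left out, and Tff3 has 3 upstream sites with no orange bar.

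By position, 13 of the 34 sites lay upstream, 10 downstream, 4 in introns, 4 over exons and 3 over a gene start (Muc13, Tff3 and Lyz1). No site lay within 1 kb of the start of Muc2, Spdef, Agr2, Fcgbp or Mmp7. Another protein-coding gene's window also held 28 of the 34. The 6 that were in no other window were the start site and the 5 inner sites of Muc13.

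The number of sites was then compared between the conditions. GF+HFM libraries called 26, 21, 28 and 28 of the 34 sites (25.75 ± 3.30, SD, n = 4), and CV+HFM libraries called 20, 2, 17 and 1 (10 ± 9.90, n = 4). The lists overall differed in the same way. The GF+HFM lists held 31061 to 36846 peaks, whereas the CV+HFM lists held 29345, 9206, 21033 and 4533, and 71.6% and 33.1% of all merged sites were called per library, beside 75.7% and 29.4% of the 34. Per 10000 merged sites called by a library, the 34 made up 7.47, 7.21, 8.52 and 8.30 in the GF+HFM libraries, against 7.22, 2.29, 8.63 and 2.45 in those of CV+HFM. The CV+HFM values are thus near those of GF+HFM in replicates 1 and 3 and below them in replicates 2 and 4, the 2 shortest lists. Without these 2 lists the mean difference between conditions was 7.25 sites in place of 15.75. Read depth is not in the lists, and the parts of depth, enrichment and the single input library per condition in the difference were not tested. When only the 4533 widest peaks of every list were kept, 4 sites were left and the difference turned to -0.25 sites.

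**Figure D3:**
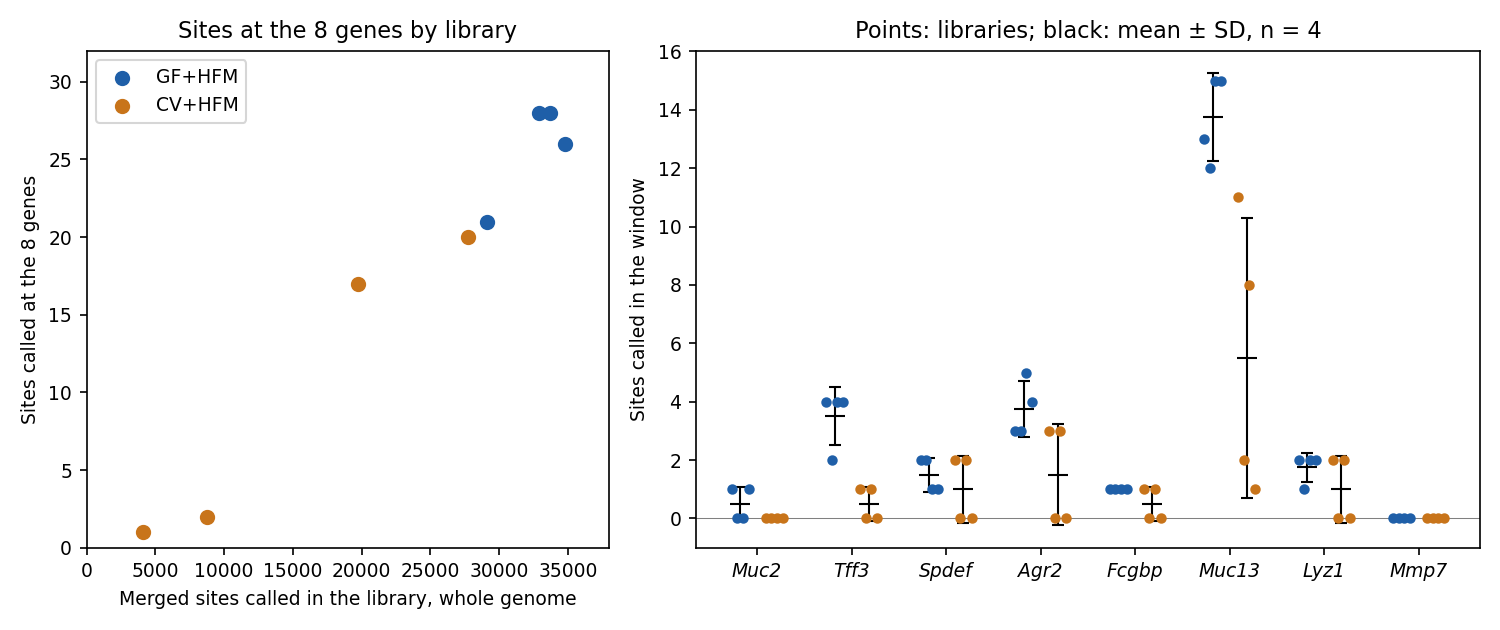
Left, sites called at the 8 genes against the merged sites called genome-wide, 1 point per library, coloured by condition. Right, sites called in the window of each gene in each library (points) with the mean and SD of 4 libraries (black). CV+HFM replicates 2 and 4, with 2 sites and 1 site at Muc13, are at 0 for the other 7 genes.

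Sites of Tff3 numbered 4, 2, 4 and 4 for GF+HFM, against 1, 0, 1 and 0 for CV+HFM. Those of Muc13 numbered 13, 12, 15 and 15, against 11, 2, 8 and 1. The conditions did not overlap for either gene. In both the GF+HFM count was higher, by 3 sites for Tff3 and 8.25 for Muc13, with an exact permutation p of 0.0286, the smallest that 4 against 4 libraries can give. Adjusted over all 14569 protein-coding genes with a site, this became 0.234, and no gene in the genome passed 0.05 (1779 genes did so at an unadjusted p). Such separation, lower in CV+HFM, was seen at 12.2% of all genes with a site and at these 2 of the 7 members with a site. Per peak in the list, Tff3 still did not overlap, at 0.644 to 1.18 sites per 10000 peaks for GF+HFM, against 0 to 0.475 for CV+HFM, whereas Muc13 did, at 3.53 to 4.41 and 2.17 to 3.80. Scaled in this way, 4.39% of all genes with a site did not overlap with CV+HFM lower and 4.47% with CV+HFM higher. Agr2 had 3, 3, 5 and 4 sites for GF+HFM, against 3, 0, 3 and 0 for CV+HFM (exact permutation p = 0.171). Spdef, Fcgbp, Lyz1 and Muc2 also overlapped between conditions, with exact permutation p between 0.429 and 0.657. In each of Spdef, Agr2, Fcgbp and Lyz1, CV+HFM replicates 2 and 4 were at 0 and replicates 1 and 3 were within the GF+HFM range.

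Site by site, 19 of the 34 (55.9%) were called in all 4 GF+HFM libraries, beside 50.6% of all merged sites. Of those 19, 2 were called in no CV+HFM library. They were the Tff3 site 5366 bp upstream and the Muc13 site over Itgb5 from 33830257 to 33830648. This is 5.88% of the 34, beside 2.79% of all merged sites. With 4 against 4 libraries Fisher's exact test cannot give an unadjusted p below 0.0286, which 1269 sites reached. The smallest adjusted p of Fisher's exact test over all sites was 0.824, so that no site passed. With this floor, the lack of a passing site does not show that the calls were alike. None of the 34 was called in CV+HFM alone, beside 2.67% of all merged sites. All 13 sites called in exactly 6 libraries, 38.2% of the 34 beside 19.2% of all merged sites, were called by the 4 GF+HFM libraries and CV+HFM replicates 1 and 3, the pattern of 97.2% of all sites called in 6. Every one of the 17 sites called in CV+HFM replicate 3 was also called in CV+HFM replicate 1, as were 92.7% of all sites of that replicate. Sites called in 1 library only numbered 7 (20.6%, beside 21.6% of all sites), and all 7 were in GF+HFM lists, beside 87.8% of all sites called once.

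Widths were compared where they could be. The Muc13 start site was the only one of the 34 among the 3445 merged sites called in all 8 libraries, of which 0.116% differed in relative width at an adjusted p below 0.05 (limma, on width ranks turned into normal scores). At Muc13 the score of CV+HFM minus that of GF+HFM was -0.11 (SE 0.48, adjusted p = 0.952, limma), a difference within the spread of the libraries. Among those 3445 sites its percentile averaged 54.0 ± 21.3 for GF+HFM, against 51.4 ± 34.8 for CV+HFM (SD, n = 4 each). CV+HFM replicate 4 entered both comparisons with the widest of its 3 peaks at this site. In the 6 lists of more than 20000 peaks, 15 of the 34 sites were called by all and none was called different, beside 0% of 17316 sites in the genome (1021 at an unadjusted limma p below 0.05), with limma adjusted p between 0.856 and 1.00. At the Muc13 start site this difference was 0.66 (SE 0.40), higher in CV+HFM.

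The windows of the 8 genes were set beside those of other genes by counts alone. The 8 genes had a median of 2 sites, the same as all protein-coding genes, and a site within 1 kb of the start at 3 of 8 (37.5%, beside 28.6% of all). Of 15 further goblet genes, 9 had a site, with a median of 2. Of 8 further Paneth genes 5 had a site (Lyz2, Itln1, Fzd5, Ephb3 and Xbp1), with a median of 1.5, though Lyz2 shares its 2 sites with Lyz1. Ang4, Habp2 and Sox9 had none. Whether the genes of this list are confined to Paneth cells was not tested, and the paper names Sox9 among genes of stem cell identity. Brush border genes, which mark absorptive enterocytes, had a median of 9.5 sites over 16 genes, with a site at 15 and within 1 kb of the start at 11. Markers of immune, stromal, endothelial and muscle cells, which such preparations may carry, had a median of 1.5 sites over 10 genes, with a site at 6 and at the start of 0. Windows differ in length. Per 100 kb the medians were 4.05 for the 8 genes, 3.31 and 3.08 for the further goblet and Paneth genes, 11.9 for brush border genes, 2.18 for the other cell types and 2.21 for all protein-coding genes. Muc13, at 27.3 per 100 kb, was above 99.8% of genes. These lists are descriptions, and no difference between them was tested.

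**Figure D4:**
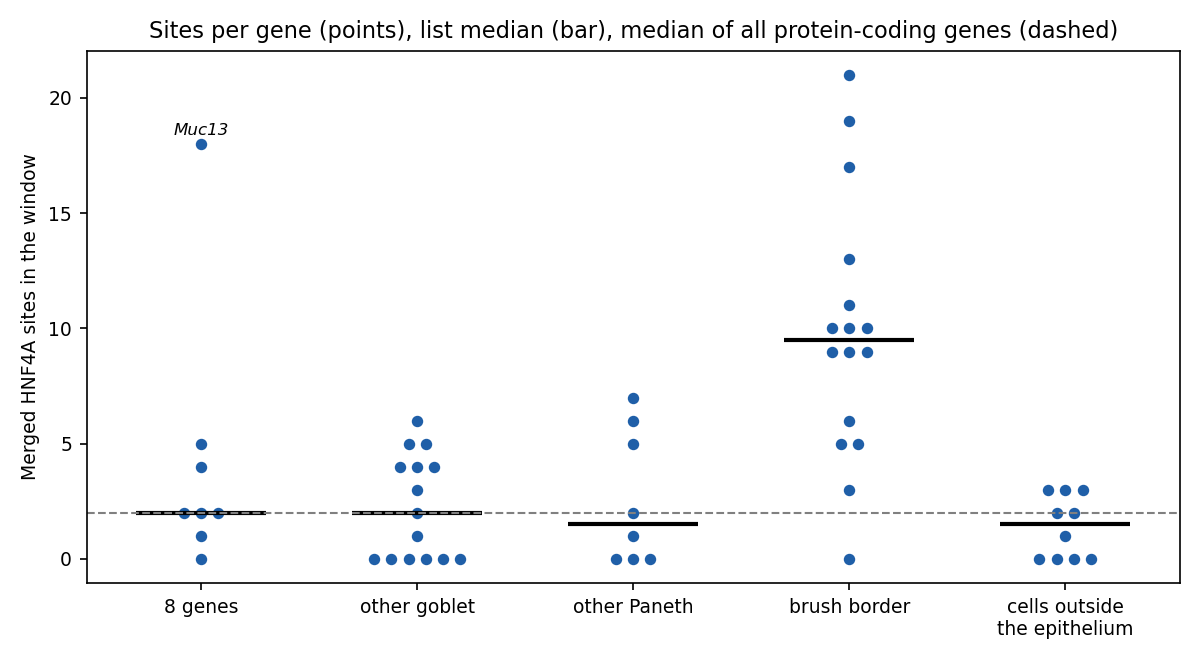
Merged HNF4A sites in the window of each gene (points) for the 8 genes and the comparison lists, with the median of each list (black bar) and of all protein-coding genes (dashed line at 2). Muc13 at 18 sites lies within the range of the brush border genes (0 to 21), and the other 7 genes lie at 0 to 5.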

How the data were processed

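HNF4A was mapped by ChIP-seq in 4 GF+HFM and 4 CV+HFM libraries, grouped from their labels. The GF and CV libraries without the meal, RNA-seq and H3K27ac were not analysed here. Per the submitters' processing notes and the study's methods, the authors used Bowtie2 to place 50 bp single-end reads on mm9, and MACS2 2.1.1.20160309 to call peaks per library against 1 input library per condition (bandwidth 300 bp, false discovery rate below 0.05). The deposited lists hold positions in bp and a name, in no other unit, without replicates pooled. No score or count is given, so depth is unknown, no counting interval can be given, and width replaced strength. Lists of narrow peaks depend on depth, enrichment and input.

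Peaks were converted to 1-based positions and merged at 1 bp or more, and a library called a site if any of its peaks lay in it. Where a library had more than 1 peak in a site, the widest gave its width. Windows were gene bodies and 20 kb either side (GENCODE M1, exons of the transcript with the most exons). The 9 unplaced sequence names absent from the reference were given no gene or sequence. All 8 members and their 34 sites are named, and for sequence the site called in most libraries, then of higher mean width percentile. The sequence of the Fcgbp site is not reported here. The members and lists were chosen with earlier results of these data known. The further gene lists were 16 goblet, 10 Paneth, 16 brush border and 10 other-cell genes, of which 15, 8, 16 and 10 were found as protein-coding.

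Calls were tested with Fisher's exact test and sites per gene with exact permutation tests over libraries. Both were two-sided with Benjamini-Hochberg adjustment over all sites or genes (scipy 1.17.1, Python 3.11.15, bedtools 2.31.1). Width ranks were tested with limma 3.58.1 in R 4.3.3. The permutation tests and limma were checked on simulated data. Per the study, each replicate was a separate mouse. Sequence was read with pysam 0.24.0, and uniqueness was counted over all 50-mers of the reference, both strands. Alternatives were other windows, the nearest gene, a cover of 50% of the site, peaks of at least 300 bp, 200 bp windows at midpoints, the 4533 widest peaks of each list, log2 width, each library left out, the share of peaks, the replicate number as a block and, chosen after the lists were seen, CV+HFM replicates 2 and 4 left out together and the 6 longest lists. Figures were drawn with matplotlib 3.10.9.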

Additional observations from a re-analysis of the deposited data

Results flagged for a closer look

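Among 36 sets of 4 libraries whose values varied, 2 had a library far from the other 3. Chance alone marks about 1 in 20 sets of continuous values, but both of these are small counts in which the other 3 libraries tie, so that this rate does not hold for them. GF+HFM replicate 2 called 2 sites at Tff3 where the other 3 GF+HFM libraries called 4 each. GF+HFM replicate 2 also called 1 site at Lyz1 where the other 3 called 2 each. Its list was the shortest of GF+HFM, at 31061 peaks beside 34011 to 36846, and the part of that in these counts was not tested.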

How the results depend on the processing

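Positions and calls, not strengths, limit these results, and the lists run from 4533 to 36846 peaks. The 34 sites became 11 in gene bodies only, 16 at 5 kb, 56 at 50 kb, 20 by nearest gene and 4 among the widest peaks of each list. The mean difference between conditions, 15.75 sites, became 4 in gene bodies only, 7 at 5 kb, 22.75 at 50 kb and 9.25 by nearest gene. It became 7.25 without CV+HFM replicates 2 and 4 and -0.25 among the widest peaks, a reversal, where 4 sites were left. With single libraries left out, the site number ran from 31 to 34 and the difference from 12.75 to 19.1. The 2 sites called in all GF+HFM and no CV+HFM libraries became 0 in gene bodies only, at 5 kb, with peaks of at least 300 bp and among the widest peaks, 1 by nearest gene (the Tff3 site), and 2 to 4 with a library left out, where it was 4 if GF+HFM replicate 2 or CV+HFM replicate 1 was dropped. At 50% cover the number was 2, but another site of the Muc13 window (starting at 33833713) took the place of the one at 33830257. Both lie over Itgb5. The share of all merged sites called this way then ranged from 0.515% among the widest peaks to 10.9% without CV+HFM replicate 1. The 2 genes without overlap became 0 in gene bodies only, at 5 kb, with peaks of at least 300 bp and among the widest peaks, and 1, Tff3, at 50 kb, by nearest gene, at 50% cover and per peak. Of all genes with a site, 17.7% did not overlap at 50 kb, 17.8% at 50% cover, 0.739% among the widest peaks and 8.64% to 11.5% under the other 3 settings without such a member, and per peak 4.39% were lower and 4.47% higher in CV+HFM. With a library left out they were 2 in every case, Tff3 and Muc13. Of all genes with a site, 20.8% did not overlap when GF+HFM replicate 2 was dropped and 38.2% when CV+HFM replicate 1 was. The 4 sites that differed in relative width became 0 with log2 width and in the 6 longest lists, and 0 to 21 with a library left out (21 on dropping CV+HFM replicate 1, 14 on dropping GF+HFM replicate 2). With the replicate block the number was 4, and same-numbered libraries correlated by 0.053, 0.075, -0.078 and 0.138. Correlations of width ranks cannot show whether same-numbered libraries shared a day or a preparation. Their labels do not state it, and it was not tested. The Muc13 start site difference, -0.11, ran from -0.42 to 0.34 with a library left out (positive on dropping GF+HFM replicate 2, at 0.17, CV+HFM replicate 2, at 0.06, or CV+HFM replicate 4, at 0.34) and was 0.66 in the 6 longest lists, with an adjusted p above 0.05 each time. The causes of these changes were not tested.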
